A study of Mus musculus with 12 samples.

Results

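The levels of 10 immediate early genes were followed in mouse liver tumours with and without Miz1 in hepatocytes. They are the AP-1 genes Fos, Fosb, Jun, Junb and Jund, the related bZIP gene Atf3, the zinc finger gene Egr1, the nuclear receptor genes Nr4a1 and Nr4a2, and Ier2. They were taken by symbol, and all 10 were found among 21751 genes and loci of the Miz1 table and among 24054 genes of the Miz1(POZ) table. The study sequenced RNA from 12 liver tumour samples of C57BL/6 mice in 4 groups of 3. Miz1△Hep tumours carried floxed Miz1 alleles and a Cre transgene driven by the albumin promoter, and were set against Miz1fl/fl tumours, which had no Cre. Miz1(POZ)△Hep tumours carried floxed alleles of the POZ domain of Miz1 with the same Cre, and were set against Miz1(POZ)fl/fl tumours without Cre. All mice, controls included, had received diethylnitrosamine at 25 mg/kg at 2 weeks of age and then 0.5 ml/kg of carbon tetrachloride in corn oil every week, and tumours were taken at 5 months. Albumin-driven Cre acts in hepatocytes, whereas the RNA came from whole tumour tissue with its other cells. The labels do not say whether the 3 samples of a group came from separate mice, so the spread between them may in part be technical.

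Immediate early genes are transcribed within minutes of a stimulus, without prior protein synthesis, and their mRNAs are short-lived. MAP kinases drive them through serum response factor with its Ets partners and through CREB. Fos proteins bind DNA only as heterodimers with Jun proteins, while Jun proteins also pair with each other, and the dimer is called AP-1. Egr1 and the Nr4a receptors are further first-wave transcription factors, and in liver the class is known for its induction after partial hepatectomy, injury and inflammatory signals. Jun has a known requirement in the formation of chemically induced mouse liver tumours. In the GENCODE M21 annotation of GRCm38, Junb, Jund and Ier2 lie on chromosome 8, Fos on 12, Fosb on 7, Jun on 4, Egr1 on 18, Atf3 on 1, Nr4a1 on 15 and Nr4a2 on 2, and Jun, Jund and Ier2 have a single exon.

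Promoter stretches are shown for Fos, Fosb, Jun, Atf3 and Nr4a1, which were among the promoters searched. These genes stood at over 3 times the floxed mean in at least 1 knockout library. Egr1 did so too, but its promoter was not searched. Each run holds the 160 bases before the start site, read 5′ to 3′ on the gene's strand, from RefSeq on GRCm38.p6. Capitals mark TGACG or its reverse complement CGTCA, the half-site of the cAMP response element bound by CREB and ATF proteins. In Fosb and Nr4a1 they also mark the Egr motif GCGNGGGCG on either strand, and in Jun a match to TGACNTCA, the full element with any base at N.
Fos (chr12:85473730-85473889, plus strand): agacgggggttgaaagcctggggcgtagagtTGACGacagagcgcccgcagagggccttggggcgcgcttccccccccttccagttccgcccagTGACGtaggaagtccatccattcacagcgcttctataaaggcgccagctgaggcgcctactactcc
Fosb (chr7:19310046-19310205, minus strand): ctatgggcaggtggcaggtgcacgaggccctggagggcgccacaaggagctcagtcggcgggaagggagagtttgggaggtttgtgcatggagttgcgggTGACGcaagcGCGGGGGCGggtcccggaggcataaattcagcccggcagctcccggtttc
Jun (chr4:95052223-95052382, minus strand): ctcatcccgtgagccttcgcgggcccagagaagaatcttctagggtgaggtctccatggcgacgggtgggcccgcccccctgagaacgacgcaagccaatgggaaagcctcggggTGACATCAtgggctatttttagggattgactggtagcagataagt
Atf3 (chr1:191183334-191183493, minus strand): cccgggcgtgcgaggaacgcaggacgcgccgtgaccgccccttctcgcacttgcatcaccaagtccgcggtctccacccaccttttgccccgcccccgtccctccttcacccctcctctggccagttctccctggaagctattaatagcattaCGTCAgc
Nr4a1 (chr15:101266686-101266845, plus strand): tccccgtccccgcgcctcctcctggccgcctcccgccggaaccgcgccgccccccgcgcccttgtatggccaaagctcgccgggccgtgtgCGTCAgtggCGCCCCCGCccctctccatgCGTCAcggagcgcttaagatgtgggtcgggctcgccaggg
RefSeq promoters were matched for 8 of the 10 genes, not Egr1 and Ier2, and 250 bases before each start site were searched on both strands. TGACG, a motif added after the sequences were seen, occurred in 6 of the 8 (Fos, Fosb, Junb, Atf3, Nr4a1 and Nr4a2) and in 17.8% of 32851 mouse promoters. GCGNGGGCG occurred in Fosb, Nr4a1 and Nr4a2 and in 4.70% of promoters. TGACNTCA occurred in Jun (7.49% of promoters). The AP-1 motif TGANTCA (6.75%), the CArG box of serum response factor (1.47%) and the Nr4a motif AAAGGTCA (1.34%) matched none of the 8 windows. The Jund window ended at base 70697738 of its chromosome, whereas GENCODE M21 starts its single transcript at base 70698949. Motif counts for Jund therefore do not describe the bases before the GENCODE start. Bases further upstream than 250, and any part of Egr1 and Ier2, were not searched, so these genes may hold such elements there. The bases TGACG can lie within TGACNTCA. Fos had TGACG at 66 to 62 bases before its start, and Jun had TGACATCA at 45 to 38 bases before its start.

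Values of the Miz1 table were read counts divided by a factor per library, called normalised reads here. The 5 libraries whose whole reads could be recovered held 30151700 to 76123000 reads in genes. Values of the Miz1(POZ) table were FPKM, and their depth is unknown. The targeted gene Zbtb17, which encodes Miz1, was at 261 to 271 normalised reads in Miz1△Hep and 302 to 323 in Miz1fl/fl tumours, and at 1.95 to 2.60 FPKM in Miz1(POZ)△Hep and 1.82 to 2.46 FPKM in Miz1(POZ)fl/fl tumours. The table values cover the whole gene, so they do not show whether single exons were lost, and the groups are named by their labels. Each knockout was tested against its own floxed control with limma on log2(value + 1). Genes entered where their mean over the 6 libraries reached 1, and p-values were adjusted over all genes tested. Fold changes on that scale understate those of low genes.

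FPKM is per length, so the Miz1(POZ) table gives the order of the 10 genes. In Miz1(POZ)△Hep tumours Egr1 was highest at 53.4 ± 41.0 FPKM, followed by Junb (22.2 ± 8.77), Ier2 (18.8 ± 7.22), Jund (17.8 ± 2.70) and Jun (14.7 ± 10; SD, n = 3 for each value of this order). Their ranges overlapped from one neighbour to the next. Fos, Nr4a1 and Atf3 formed a second tier at 2.78 ± 2.05, 2.76 ± 2.2 and 2.75 ± 2.10 FPKM, and Fosb (0.170 ± 0.0755) and Nr4a2 (0.0967 ± 0.0416) were lowest. In Miz1(POZ)fl/fl tumours the order was Junb (25.4 ± 6.30), Egr1 (23.0 ± 10.9), Jund (17.03 ± 0.930), Ier2 (16.7 ± 1.84), Jun (7.50 ± 1.23), Atf3 (0.937 ± 0.505), Fos (0.820 ± 0.217), Nr4a1 (0.617 ± 0.0777), Nr4a2 (0.133 ± 0.0666) and Fosb (0.05 ± 0.07). The same 3 tiers were seen there, and neighbours within a tier overlapped except Jun, which lay below Ier2 in every library. Junb, Jund and Ier2 were abundant in the floxed tumours, while Fos and Fosb, the partners that need a Jun protein, were scarce.

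In Miz1△Hep against Miz1fl/fl tumours, Nr4a1 and Egr1 stood higher on average, Fos was far higher in 1 library, and Jund, Ier2 and Nr4a2 were at similar levels in both groups. Of the 10 genes, 0 passed an adjusted p of 0.05 with limma, as did 0 of all 21751 tested (0%). On the recovered reads of 5 libraries edgeR called 0 genes and DESeq2 called 5, and the lowest adjusted p of the 10 genes was 1.00 by either tool. At an unadjusted p under 0.05, 1 of the 10 was higher, Nr4a1, and none was lower, where 0.786% of all genes tested were higher and 0.887% lower (364 genes in all). With the replicate number as a block there were 1150 such genes in all, again with 1 of the 10, and 0 passed the adjusted threshold. The log2 fold change was positive for 8 of the 10 (52.1% of all genes tested), with a median of 0.22 against 0.01 over all genes. That number became 6 without Miz1△Hep library 1 and 4 without Miz1fl/fl library 2.

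**Figure D1:**
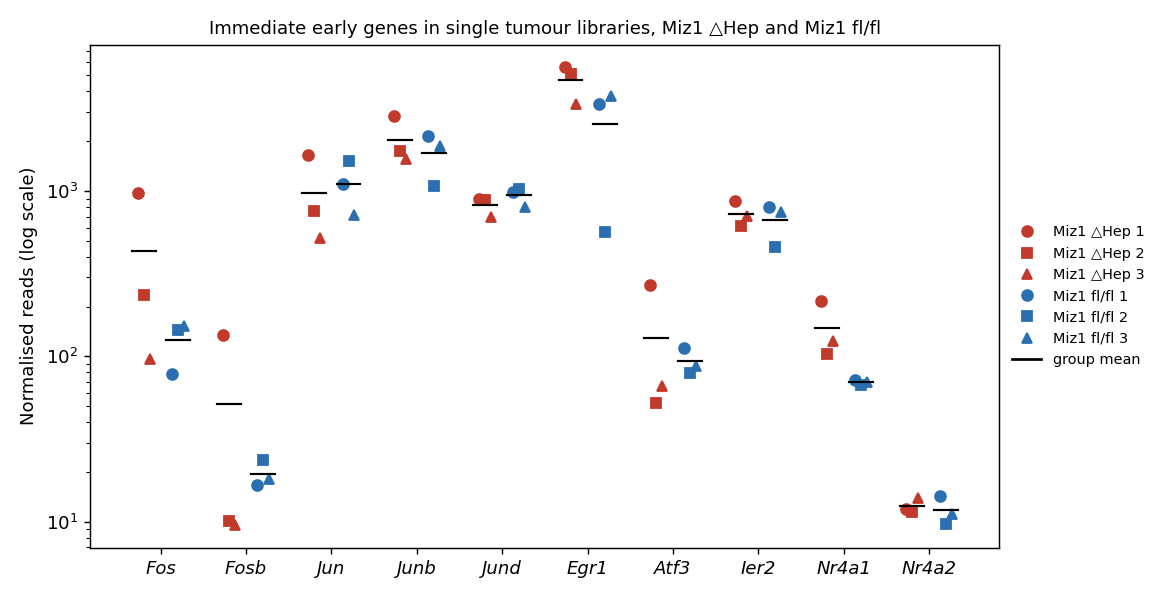
Normalised reads (log axis) of the 10 genes in each Miz1△Hep library (red, left of each pair) and each Miz1fl/fl library (blue), with the group mean as a line. Nr4a1 has no overlap between the groups, and Miz1△Hep library 1 (red circle) is the highest of the 6 for 8 genes.

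Nr4a1, an orphan nuclear receptor also known as Nur77, was at 216, 104 and 124 normalised reads in Miz1△Hep libraries 1, 2 and 3, against 72.0, 67.1 and 69.7 in Miz1fl/fl libraries 1, 2 and 3. All 3 knockout libraries lay above all 3 floxed ones, and the floxed values were close together. The ratio of the means was 2.12 and the log2 fold change was 1.01 ± 0.31 (SE), which did not pass with limma (adjusted p = 1.00). Nr4a1 was the 1 gene of the 10 whose groups did not overlap, where 2.57% of all genes tested were higher without overlap. Without Miz1△Hep library 1 its log2 fold change was 0.70. Nr4a2, the related receptor Nurr1, was at 12.0, 11.4 and 13.9 in Miz1△Hep and at 14.4, 9.74 and 11.1 in Miz1fl/fl tumours. Its values rest on 9 to 29 reads a library, and the groups overlapped.

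Egr1, a zinc finger factor induced by growth factors, was at 5578, 5130 and 3355 normalised reads in Miz1△Hep libraries, against 3360, 568 and 3744 in Miz1fl/fl libraries. Miz1fl/fl library 2 was the low one, at 0.222 times its group's mean, and the other floxed libraries lay at the level of Miz1△Hep library 3. The log2 fold change was 1.25 ± 0.73 (SE) with all libraries and 0.37 without Miz1fl/fl library 2.

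Fos, the defining AP-1 partner of Jun, was at 968, 236 and 96.0 normalised reads in Miz1△Hep libraries, against 78.0, 144 and 154 in Miz1fl/fl libraries. Miz1△Hep library 1 was 7.74 times the floxed mean, whereas library 3 lay within the floxed range. The log2 fold change was 1.22 ± 0.82 (SE), and 0.33 without Miz1△Hep library 1. Fosb, its close relative, was at 134, 10.1 and 9.598 in Miz1△Hep and at 16.8, 23.8 and 18.2 in Miz1fl/fl tumours. Library 1 of the knockout was above and the others below every floxed library. The reads behind these values were 112 in Miz1△Hep library 1 (95% exact Poisson interval 92.2 to 135), 8 in library 2 (3.45 to 15.8) and 20 in library 3 (12.2 to 30.9), against 14 (7.65 to 23.5) and 22 (13.8 to 33.3) in Miz1fl/fl libraries 1 and 2. Such intervals cover counting error only. Its log2 fold change of 0.31 ± 1.00 (SE) became -0.91 without Miz1△Hep library 1.

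The Jun partners showed smaller differences. Jun was at 1659, 762 and 517 normalised reads in Miz1△Hep libraries, against 1097, 1509 and 716 in Miz1fl/fl libraries, and the groups overlapped (log2 fold change -0.29 ± 0.47 SE). Junb, which can restrain Jun activity, was at 2829, 1740 and 1560 in Miz1△Hep and at 2140, 1074 and 1870 in Miz1fl/fl tumours (0.28 ± 0.34 SE). Jund, the least inducible Jun protein, was at 894, 881 and 694 in Miz1△Hep and at 992, 1022 and 805 in Miz1fl/fl tumours (-0.19 ± 0.17 SE). Across the 6 libraries the highest Jund value was 1.47 times the lowest, against 12.4 times for Fos.

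Atf3, a stress-induced bZIP factor, was at 268, 52.0 and 66.7 normalised reads in Miz1△Hep libraries, against 113, 79.0 and 87.9 in Miz1fl/fl libraries. As for Fosb, Miz1△Hep library 1 lay above and the other knockout libraries below the floxed range. Its log2 fold change was 0.09 ± 0.62 (SE), and -0.64 without that library. Ier2, a nuclear protein of the first wave, was at 872, 613 and 702 in Miz1△Hep and at 798, 457 and 747 in Miz1fl/fl tumours (0.15 ± 0.26 SE), with overlap between the groups.

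In Miz1(POZ)△Hep against Miz1(POZ)fl/fl tumours, Nr4a1 and Fos were higher in every knockout library than in every floxed one, Egr1, Jun and Atf3 were higher on average with overlap, and Junb, Jund and Ier2 were at similar levels. Of the 10 genes 8 had a mean of at least 1 FPKM and were tested, and Fosb and Nr4a2 were not. Fos, Atf3 and Nr4a1 had floxed means under 1 FPKM and entered the test through their knockout libraries, so counts over the tested genes are given as a description. With limma 0 of the 8 passed an adjusted p of 0.05, as did 0 of 11201 genes (0%), while 976 genes had an unadjusted p under 0.05. Of all genes tested 4.79% were higher and 3.92% lower at that level, and Fos and Nr4a1 were among the higher ones. The log2 fold change was positive for 7 of the 8 (55.7% of all genes tested; median 0.77 against 0.03 over all genes). With no filter on low values it was positive for 8 of the 10. Without Miz1(POZ)△Hep library 3 it was positive for 4 of the 7 then tested, with a median of 0.23.

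**Figure D2:**
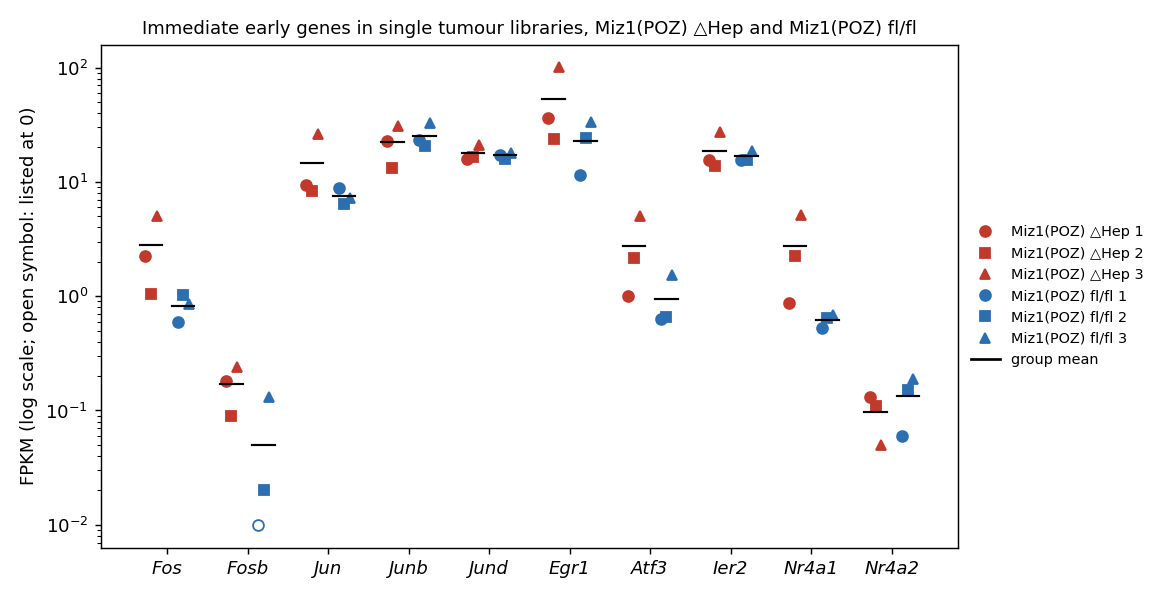
FPKM (log axis) of the 10 genes in each Miz1(POZ)△Hep library (red, left of each pair) and each Miz1(POZ)fl/fl library (blue), with the group mean as a line and an open symbol where a gene is listed at 0. Miz1(POZ)△Hep library 3 (red triangle) is the highest of the 6 for 8 of the 10 genes.

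Nr4a1 was at 0.870, 2.24 and 5.18 FPKM in Miz1(POZ)△Hep libraries 1, 2 and 3, against 0.530, 0.640 and 0.680 in Miz1(POZ)fl/fl libraries 1, 2 and 3. The floxed libraries were again close together and the knockout libraries spread upwards. The ratio of the means was 4.48, and 2.52 without library 3 of the knockout. The log2 fold change of 1.05 ± 0.40 (SE) did not pass with limma (adjusted p = 0.527). Nr4a2 was at 0.130, 0.110 and 0.05 FPKM in Miz1(POZ)△Hep and at 0.0600, 0.15 and 0.190 FPKM in Miz1(POZ)fl/fl tumours, near the limit of the table's 2 decimals.

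Fos was at 2.24, 1.05 and 5.05 FPKM in Miz1(POZ)△Hep libraries, against 0.590, 1.02 and 0.850 FPKM in Miz1(POZ)fl/fl libraries. The groups did not overlap, although knockout library 2 and floxed library 2 differed by little. Of the 8 tested genes, Nr4a1 and Fos were the 2 that were higher without overlap, where the share over all genes tested was 8.68%. Both entered the test through their knockout libraries, so this count is a description only. The ratio of the means was 3.39, and 2.01 without library 3 of the knockout, and the log2 fold change was 0.92 ± 0.37 (SE; limma adjusted p = 0.549). Fosb was at 0.180, 0.0900 and 0.240 FPKM in Miz1(POZ)△Hep tumours, against 0, 0.0200 and 0.130 FPKM in Miz1(POZ)fl/fl tumours. The groups overlapped at levels where a fold is not informative.

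Egr1 was at 35.9, 24.0 and 100.2 FPKM in Miz1(POZ)△Hep libraries, against 11.5, 24.3 and 33.2 FPKM in Miz1(POZ)fl/fl libraries. Knockout library 3 stood apart and library 2 lay within the floxed range. Its log2 fold change was 1.04 ± 0.57 (SE), and 0.46 without library 3. Jun was at 9.44, 8.38 and 26.2 FPKM in Miz1(POZ)△Hep and at 8.86, 6.46 and 7.19 FPKM in Miz1(POZ)fl/fl tumours. Its log2 fold change was 0.72 ± 0.39 (SE), and 0.23 without library 3. Atf3 was at 1.01, 2.15 and 5.08 FPKM in Miz1(POZ)△Hep and at 0.630, 0.660 and 1.52 FPKM in Miz1(POZ)fl/fl tumours (0.83 ± 0.40 SE, and 0.41 without library 3). For all 3 genes the groups overlapped.

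Junb was at 22.9, 13.1 and 30.6 FPKM in Miz1(POZ)△Hep libraries, against 23.3, 20.5 and 32.5 FPKM in Miz1(POZ)fl/fl libraries (log2 fold change -0.24 ± 0.31 SE). Jund was at 15.9, 16.7 and 20.9 FPKM in Miz1(POZ)△Hep and at 17.3, 15.98 and 17.8 FPKM in Miz1(POZ)fl/fl tumours (0.05 ± 0.14 SE). Ier2 was at 15.5, 13.8 and 27.1 FPKM in Miz1(POZ)△Hep and at 15.6, 15.7 and 18.8 FPKM in Miz1(POZ)fl/fl tumours (0.11 ± 0.25 SE). Jund again varied least, the highest library being 1.32 times the lowest, against 8.56 times for Fos and 9.77 times for Nr4a1.

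**Figure D3:**
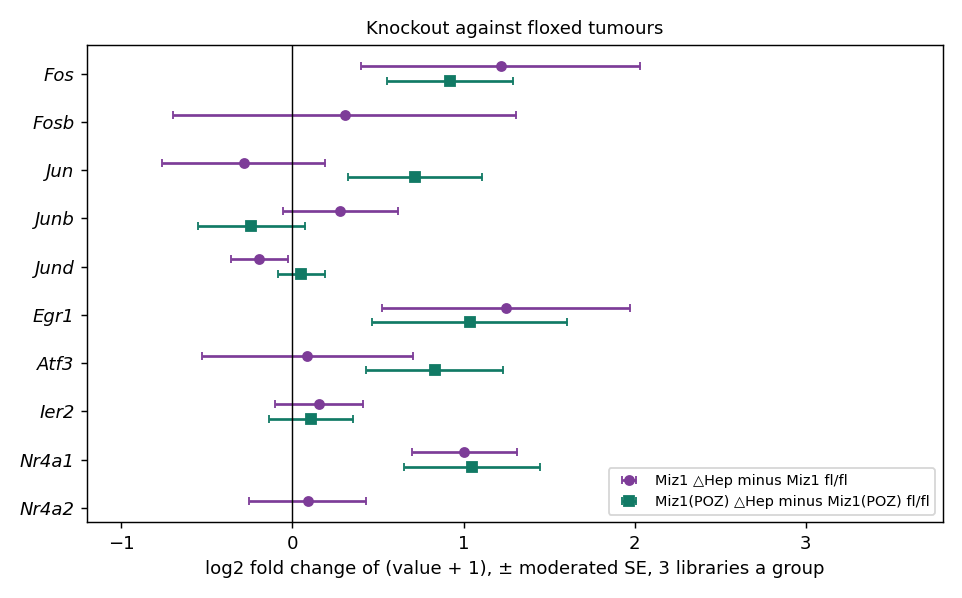
Log2 fold changes of (value + 1) with moderated SE (limma, 3 libraries a group) for Miz1△Hep minus Miz1fl/fl (purple circles) and Miz1(POZ)△Hep minus Miz1(POZ)fl/fl (green squares). Nr4a1 is at 1.01 and 1.05 and Egr1 at 1.25 and 1.04, but the Miz1(POZ) values of low genes depend on the pseudocount (Nr4a1 1.68 with 0.1). Jund is at -0.19 and 0.05. Fosb and Nr4a2 were not tested in the Miz1(POZ) table.

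The comparisons do not share libraries, and their difference was not tested because the tables differ in unit. Side by side, Nr4a1 had log2 fold changes of 1.01 and 1.05 for the Miz1 and the Miz1(POZ) knockout, Egr1 of 1.25 and 1.04, and Fos of 1.22 and 0.92. Jun had -0.29 and 0.72, and Atf3 0.09 and 0.83. Adding 1 weighs more on FPKM near 1 than on normalised reads, so these values cannot be matched between the tables. With a pseudocount of 0.1 the Miz1 and Miz1(POZ) values were 1.01 and 1.68 for Nr4a1, 1.22 and 1.41 for Fos, and 0.08 and 1.28 for Atf3. In each knockout group 1 library stood highest for most of the 10 genes. Miz1△Hep library 1 was at 7.74 times the floxed mean for Fos, 6.85 times for Fosb, 3.10 times for Nr4a1, 2.88 times for Atf3 and 2.18 times for Egr1, but at 0.951 times for Jund and 1.02 times for Nr4a2. Miz1(POZ)△Hep library 3 was at 8.40 times for Nr4a1, 6.16 times for Fos, 5.42 times for Atf3, 4.36 times for Egr1 and 3.49 times for Jun, but at 1.23 times for Jund and 1.2 times for Junb. Other knockout libraries were also above the floxed mean for some genes. Egr1 was at 2.01 times it in Miz1△Hep library 2, and Nr4a1 was at 1.49 and 1.78 times it in Miz1△Hep libraries 2 and 3 and at 3.63 times it in Miz1(POZ)△Hep library 2. Miz1△Hep library 1 was the highest of its 6 libraries for 8 of the 10 genes and for 23.8% of all genes tested. Miz1(POZ)△Hep library 3 was the highest for 7 of the 8 tested genes and for 16.7% of all genes tested. Fos, Atf3 and Nr4a1 entered that test through their knockout libraries, and Nr4a1 fell under the filter without library 3. The count over these 8 is therefore a description only. Both libraries were singled out after their values were seen.

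**Figure D4:**
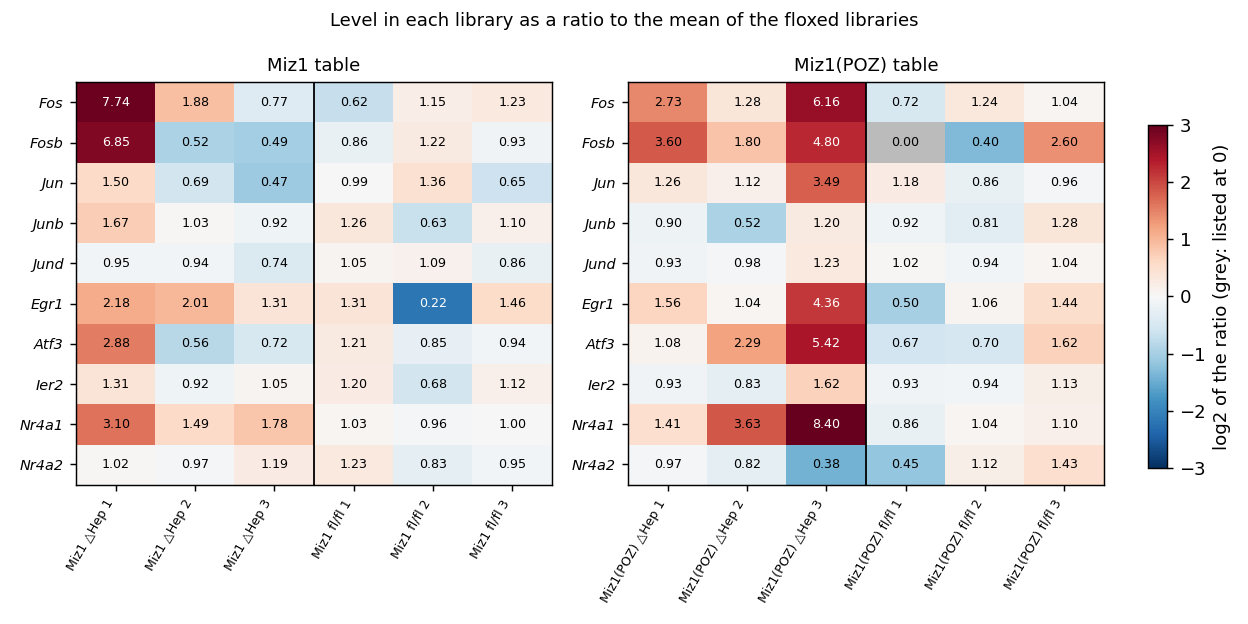
Each cell gives the level in 1 library divided by the mean of the 3 floxed libraries of its table, coloured by the log2 of that ratio, with knockout libraries left of the line. The first Miz1△Hep column (Fos 7.74, Fosb 6.85) and the third Miz1(POZ)△Hep column (Nr4a1 8.40, Fos 6.16) hold the highest ratios, and the Egr1 cell of Miz1fl/fl library 2 is at 0.22.

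Other genes of the immediate early programme were taken from fixed lists, and none passed the limma test in either comparison. Feedback inhibitors and mRNA decay factors, which shut the response down, were higher in Miz1△Hep tumours for 11 of 17 (median log2 fold change 0.26, against 0.01 over all genes) and in Miz1(POZ)△Hep tumours for 7 of 15 (-0.01, against 0.03 over all genes). Zfp36l1, which destabilises AU-rich mRNAs, was at 2271, 2046 and 1813 normalised reads in Miz1△Hep libraries, against 1745, 1672 and 1460 in Miz1fl/fl libraries. Its paralogue Zfp36 was at 38.97, 52.2 and 53.5 FPKM in Miz1(POZ)△Hep libraries, against 35.3, 28.2 and 32.2 FPKM in Miz1(POZ)fl/fl libraries. The groups did not overlap in either case. Each gene was picked for the smallest unadjusted limma p of this list in its own comparison. Its values in the other comparison are not given, so no shared rise is read from the pair. Errfi1, a feedback inhibitor of the EGF receptor, was lower without overlap in Miz1△Hep tumours (log2 fold change -0.47 ± 0.22 SE). Trib1, a pseudokinase, was at 15.6, 15.1 and 13.8 FPKM in Miz1(POZ)△Hep libraries, against 18.6, 17.1 and 16.3 FPKM in Miz1(POZ)fl/fl libraries, also lower without overlap. In all, 1 of the 17 was higher and 1 lower without overlap in Miz1△Hep tumours, where the shares over all genes tested were 2.57% and 3.05%. In Miz1(POZ)△Hep tumours 2 of the 15 were higher and 1 lower, where the shares were 8.68% and 6.32%. Further immediate early genes were higher for 9 of 16 in Miz1△Hep (median 0.07) and 6 of 14 in Miz1(POZ)△Hep tumours (-0.05). Among them Cyr61, a matricellular protein induced by serum and YAP, was at 4.6, 5.88 and 5.49 FPKM in Miz1(POZ)△Hep and at 3.82, 3.24 and 3.20 FPKM in Miz1(POZ)fl/fl tumours, with no overlap (log2 fold change 0.51 ± 0.12 SE; limma adjusted p = 0.372). In the Miz1 table Cyr61 was at 623, 207 and 283 normalised reads in Miz1△Hep and 267, 177 and 168 in Miz1fl/fl tumours, with overlap. Lower without overlap in Miz1(POZ)△Hep tumours were the kinase genes Plk2 and Pim1. Plk2 was at 6.31, 4.45 and 4.84 FPKM in Miz1(POZ)△Hep and at 8.25, 7.42 and 6.81 FPKM in Miz1(POZ)fl/fl tumours (log2 fold change -0.46 ± 0.14 SE). Pim1 was at 7.05, 4.32 and 4.82 FPKM in Miz1(POZ)△Hep and at 15.6, 10.3 and 7.18 FPKM in Miz1(POZ)fl/fl tumours (-0.87 ± 0.28 SE). Of the 14 genes, 1 was thus higher and 2 lower without overlap.

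Other immediate early transcription regulators were higher for 8 of 13 in Miz1△Hep (median 0.07) and 7 of 12 in Miz1(POZ)△Hep tumours (0.02). Cebpd, a C/EBP factor of the acute phase response, was at 192, 115 and 164 normalised reads in Miz1△Hep and at 220, 529 and 282 in Miz1fl/fl tumours, so all knockout libraries were lower. Klf2 was also lower without overlap in Miz1△Hep tumours (log2 fold change -0.48 ± 0.20 SE). Klf10, a TGF-beta-inducible repressor, was at 9.78, 7.30 and 7.84 FPKM in Miz1(POZ)△Hep and at 13.7, 10.7 and 15.1 FPKM in Miz1(POZ)fl/fl tumours, likewise lower without overlap. In all, 2 of the 13 and 1 of the 12 were lower without overlap and 0 were higher. The shares lower without overlap over all genes tested were 3.05% and 6.32%. Myc was at 4.38, 2.39 and 6.31 FPKM in Miz1(POZ)△Hep and at 9.50, 11.5 and 6.23 FPKM in Miz1(POZ)fl/fl tumours, where the groups overlapped. Of the Egr and Nr4a kin, 3 of the 4 tested were higher in Miz1△Hep tumours (median 0.37) and 0 of the 2 tested in Miz1(POZ)△Hep tumours. Egr2 was at 46.7, 15.2 and 16.8 normalised reads in Miz1△Hep and at 14.4, 8.66 and 21.2 in Miz1fl/fl tumours. Other AP-1 bZIP genes were higher for 9 of 13 and 4 of 9 in Miz1△Hep and Miz1(POZ)△Hep tumours (medians 0.10 and -0.05).

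Upstream of these genes, serum response factor, Ets partner and CREB genes were higher for 4 of 12 in Miz1△Hep (median -0.04) and 6 of 12 in Miz1(POZ)△Hep tumours (-0.01), and MAP kinase pathway genes for 10 of 22 (-0.02) and 7 of 21 (-0.05). Map3k5, the stress kinase ASK1 upstream of JNK and p38, was at 2537, 2584 and 3116 normalised reads in Miz1△Hep and at 3590, 3653 and 3920 in Miz1fl/fl tumours. In the other table Map3k5 was at 9.08, 9.78 and 11.7 FPKM in Miz1(POZ)△Hep and at 16.7, 13.8 and 13.0 FPKM in Miz1(POZ)fl/fl tumours. It was lower without overlap in both (log2 fold changes -0.44 ± 0.14 and -0.47 ± 0.14 SE; limma adjusted p = 1.00 and 0.443). Of the MAP kinase pathway genes, 3 of 22 and 3 of 21 were lower without overlap, and 0 were higher in either comparison. The shares lower without overlap over all genes tested were 3.05% and 6.32%. Of genes known as AP-1 targets, 8 of 10 were higher in Miz1△Hep (median 0.42) and 4 of 6 in Miz1(POZ)△Hep tumours (0.05). Mmp12, macrophage elastase, was at 1.38, 1.70 and 1.56 FPKM in Miz1(POZ)△Hep and at 0.640, 0.610 and 0.590 FPKM in Miz1(POZ)fl/fl tumours. Ccnd1, cyclin D1, was at 6.06, 6.59 and 12.2 FPKM in Miz1(POZ)△Hep and at 18.4, 17.8 and 41.2 FPKM in Miz1(POZ)fl/fl tumours. The groups of both genes did not overlap, in opposite directions. Of the 6 tested targets 1 was thus higher and 1 lower without overlap, where the shares over all genes tested were 8.68% and 6.32%. Mmp12 had a floxed mean of 0.613 FPKM and entered the test through its knockout libraries, as Fos, Atf3 and Nr4a1 had. The counts over these 6 are therefore a description. Heat shock genes were higher for 2 of 11 in Miz1△Hep (median -0.15) and 6 of 10 in Miz1(POZ)△Hep tumours (0.08).

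**Figure D5:**
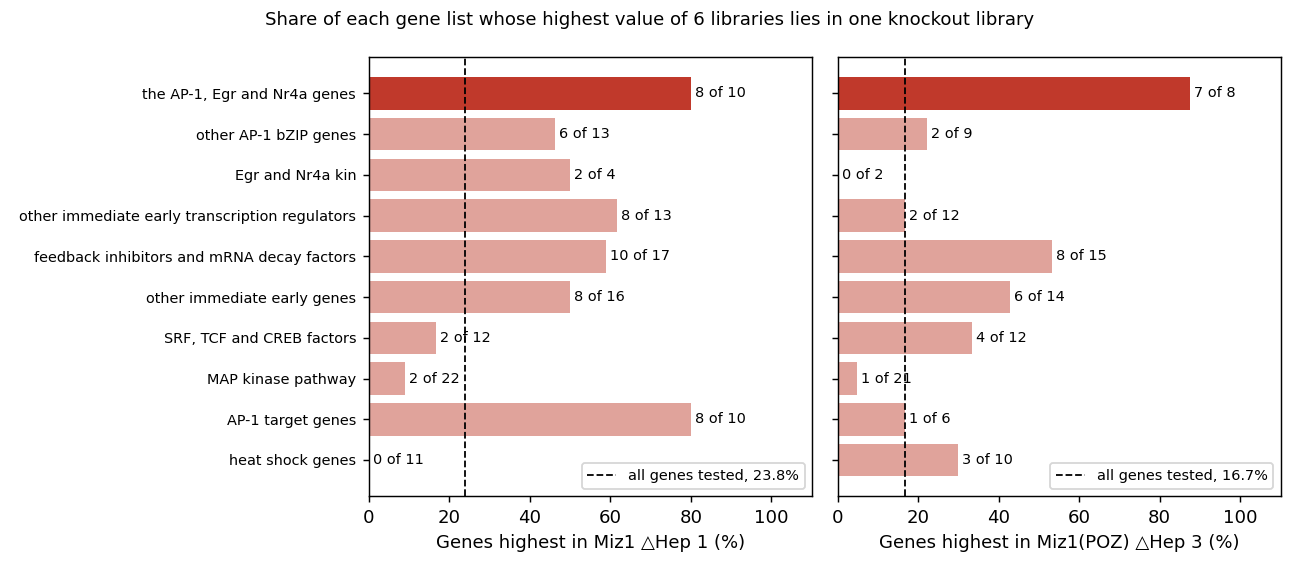
Bars give the percentage of each list's tested genes whose highest value of the 6 libraries lies in Miz1△Hep library 1 (left) or Miz1(POZ)△Hep library 3 (right), with counts beside them and the share of all genes tested as a dashed line (23.8% and 16.7%). Miz1△Hep library 1 was highest for 10 of 17 feedback inhibitors and 0 of 11 heat shock genes, and Miz1(POZ)△Hep library 3 for 8 of 15 and 3 of 10. On the right, Fos, Atf3 and Nr4a1 entered the test through their knockout libraries, so the bar of the AP-1, Egr and Nr4a genes is a description only.

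Miz1△Hep library 1 was also the highest for many genes of some other fixed lists, but not of all. It was the highest library for 10 of 17 feedback inhibitors and 8 of 16 further immediate early genes. It was so too for 8 of 13 other transcription regulators, 8 of 10 AP-1 targets and 6 of 13 other AP-1 bZIP genes. The counts were 2 of 22 for MAP kinase pathway genes and 0 of 11 for heat shock genes. For serum response factor, Ets partner and CREB genes the count was 2 of 12. The share over all genes tested was 23.8%. Miz1(POZ)△Hep library 3 was the highest for 8 of 15 feedback inhibitors and 6 of 14 further immediate early genes. Its counts were 2 of 12 for other transcription regulators, 1 of 6 for AP-1 targets and 1 of 21 for MAP kinase pathway genes. They were 3 of 10 for heat shock genes and 4 of 12 for serum response factor, Ets partner and CREB genes (16.7% of all genes tested).

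Cell type markers were summed in each library. Hepatocyte markers were present in all 12 libraries, with sums of 3150000 to 3399000 normalised reads in Miz1△Hep and 2044000 to 5410000 in Miz1fl/fl tumours, and of 42160 to 75300 FPKM in Miz1(POZ)△Hep and 56890 to 88100 FPKM in Miz1(POZ)fl/fl tumours. In Miz1△Hep tumours 6 of 6 macrophage markers were higher, summing to 5047 to 10730 against 3203 to 8294 normalised reads in Miz1fl/fl tumours. For stellate cell and fibroblast markers this was 6 of 6, with sums of 4404 to 11860 against 3100 to 5922, and for neutrophil markers 2 of 4, with 158 to 1008 against 179 to 465. T and NK cell markers were higher for 4 of 5 (84.9 to 193 against 70.7 to 107), B cell markers for 2 of 3 (59.99 to 171 against 57.3 to 105), endothelial markers for 4 of 5 (11150 to 12030 against 10650 to 13830), cholangiocyte markers for 4 of 4 (1010 to 1670 against 817 to 1144) and erythroid markers for 0 of 4 (139 to 3507 against 373 to 3366). Miz1△Hep library 1 held the highest sum for each of these lists except the endothelial and hepatocyte ones. Miz1fl/fl library 1 was also above Miz1△Hep libraries 2 and 3 for macrophage (8294), neutrophil (465) and erythroid markers (3366). This held too for T and NK cell (107), B cell (92.4) and stellate cell and fibroblast markers (5625). It held as well for endothelial (13830) and hepatocyte markers (5410000). For cholangiocyte markers Miz1fl/fl library 1 (1144) lay below Miz1△Hep library 2 (1184). In a bulk tumour more cells of a type and more RNA per cell cannot be told apart, and the part of these cells in the immediate early values was not tested.

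In the Miz1(POZ) table, Miz1(POZ)△Hep library 3 had the highest sum only for stellate cell and fibroblast markers (46.7 FPKM). Its macrophage sum of 83.3 FPKM was the lowest of the 3 knockout libraries, as was its neutrophil sum of 9.95 FPKM. Its hepatocyte sum of 75300 FPKM and its endothelial sum of 74.6 FPKM were the highest of the 3 knockout libraries. The macrophage sums were 83.3 to 119 FPKM in Miz1(POZ)△Hep and 71.3 to 129 FPKM in Miz1(POZ)fl/fl tumours (4 of 5 higher), and the neutrophil sums 9.95 to 39.7 FPKM in Miz1(POZ)△Hep and 6.62 to 23.8 FPKM in Miz1(POZ)fl/fl tumours (3 of 3 tested higher). Stellate cell and fibroblast sums were 22.9 to 46.7 FPKM in Miz1(POZ)△Hep and 32.6 to 41.8 FPKM in Miz1(POZ)fl/fl tumours (2 of 6 higher), and endothelial sums 51.2 to 74.6 FPKM in Miz1(POZ)△Hep and 61.9 to 80.6 FPKM in Miz1(POZ)fl/fl tumours (1 of 5 higher). T and NK cell markers summed to 0.910 to 2.45 FPKM in Miz1(POZ)△Hep and 1.85 to 4.39 FPKM in Miz1(POZ)fl/fl tumours, with none of 5 reaching the filter. In Miz1(POZ)△Hep tumours B cell markers summed to 1.09 to 1.85 FPKM, cholangiocyte markers to 3.05 to 4.73 FPKM and erythroid markers to 40.9 to 106 FPKM. In Miz1(POZ)fl/fl tumours these sums were 1.36 to 4.08 FPKM, 4.48 to 7.48 FPKM and 24.4 to 72.0 FPKM. The part of these cells was not tested here either, and 1 erythroid marker of 4 was listed at 0 throughout.

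The genes whose profile over the 6 libraries was most like the mean profile of the 10 were found by the root mean square difference of centred log2 values. In the Miz1 table these were Chaf1b (0.0570), Zfp937 (0.0800), the unannotated loci XLOC_069958 (0.0860) and XLOC_069515 (0.0920), and Slc8a1 (0.0930), out of 21741 genes. Chaf1b, a chromatin assembly subunit, was at 121, 55.8 and 46.1 normalised reads in Miz1△Hep and at 62.4, 45.4 and 58.6 in Miz1fl/fl tumours. In the Miz1(POZ) table, over the 8 tested genes, they were Ermp1 (0.107), Desi2 (0.120), Ccng2 (0.161), Serpinb6b (0.162) and Abca5 (0.175), out of 11193. Ermp1, an endoplasmic reticulum peptidase, was at 9.68, 9.43 and 23.8 FPKM in Miz1(POZ)△Hep and at 7.4, 6.57 and 9.72 FPKM in Miz1(POZ)fl/fl tumours. The likeness is over 6 libraries and is a description.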

How the data were processed

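RNA from 12 liver tumour samples was measured. The deposited Miz1 table holds, per gene, a signal of reads divided by 1 factor per library. Undoing that factor gave whole reads, within 0.01 reads, for 100% of nonzero values in 5 columns, and no reads are claimed for Miz1fl/fl library 3. Its 4 entries that name no gene held 38.0% to 50.8% of the columns and were left out. The deposited values of the Miz1(POZ) table are in FPKM, written with 2 decimals, which RPKM would resemble, and their depth is unknown. Per the submitters' processing notes, the tools included DESeq2 1.16.1, RSEM 1.1.17, Bowtie2 2.2.6 and Trimmomatic 0.36, and the build was mm10. The step that made each table is not stated.

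Within each table limma 3.58.1 (two-sided, trended eBayes, under R 4.3.3) was run on log2(value + 1) of genes whose mean reached 1, the test planned for normalised values, with Benjamini-Hochberg adjustment over all genes and a threshold of 0.05. Each SE is the moderated one. Alternatives were a pseudocount of 0.1, no filter, a mean of at least 10, other scalings, robust moderation, the replicate block, leaving out each library, and edgeR 4.0.16 and DESeq2 1.42.0 on recovered reads of 5 libraries. The fits were tested on simulated data. The genes, lists and tests were chosen with earlier results of these data known. Named are all 10 genes, Zbtb17, genes from the 3 of smallest p per list and table, and the 5 of most similar profile per table. Those from lists were chosen by their values. Titles number the replicates. Deviations from the group mean correlated across genes at 0.489, 0.339 and 0.118 between Miz1 libraries of equal number, each over 0.1. Knockout 3 nevertheless correlated more with floxed 2 (0.282). The replicate number was used as a block only in the alternative fit, and the main fit did not pair libraries. Printed SEs and p-values are from the fit without the block, unless the block is named. Promoters are from RefSeq on GRCm38.p6. Figures were drawn with matplotlib 3.10.9.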

Additional observations from a re-analysis of the deposited data

Results flagged for a closer look

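Errfi1, a feedback inhibitor of the EGF receptor, was lower in every Miz1△Hep library and higher in every Miz1(POZ)△Hep library than in all floxed libraries of the same table. It was at 28232, 36715 and 37480 normalised reads in Miz1△Hep libraries 1, 2 and 3, against 41227, 54121 and 45834 in Miz1fl/fl libraries (log2 fold change -0.47 ± 0.22 SE). In the other table Errfi1 was at 458.6, 537.9 and 550.2 FPKM in Miz1(POZ)△Hep libraries, against 447.2, 438.9 and 378.1 FPKM in Miz1(POZ)fl/fl libraries (0.29 ± 0.18 SE). Neither difference passed with limma (adjusted p = 0.9998 and 0.705), and the difference between the knockouts was not tested. Groups of 3 are too small for a test of single outlying libraries, so none was made.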

How the results depend on the processing

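No setting brought one of the 10 genes past an adjusted p of 0.05. Over all genes, the number past it in the Miz1 comparison was 0 in every setting run except DESeq2 on 5 libraries (5 genes). In the Miz1(POZ) comparison it was 1 at a mean of at least 10 FPKM and 0 to 4 when single libraries were left out. With replicate numbers as a block it was 0 in both comparisons, and the replicate block changed no call at that threshold. Of the 8 of these genes tested in the Miz1(POZ) comparison, 4 had an unadjusted limma p under 0.05 with the block and 2 without it. Over all 11201 genes tested these numbers were 1076 and 976. The counts over the 8 are a description, since some entered the test through their knockout libraries. In the Miz1(POZ) table same-numbered correlations were -0.09, 0.23 and 0.18, and not every sample correlated best with the sample of its own number. The labels do not say whether samples of equal number share more than that number. The number of genes of the 10 with a positive fold change ran from 4 to 9 in the Miz1 and from 4 to 8 in the Miz1(POZ) comparison when single libraries were left out, and was 4 of 5 at a mean of at least 10 FPKM. These counts were added after the data were seen.

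Signs turned only when single libraries were left out. The ranges of the log2 fold change over those fits were, for Miz1, -0.907 to 0.929 for Fosb, -0.754 to 0.087 for Jun, -0.020 to 0.477 for Junb, -0.638 to 0.536 for Atf3, -0.098 to 0.304 for Ier2, -0.028 to 0.232 for Nr4a2, -0.671 to 0.169 for Hsph1, -0.115 to 0.572 for Chaf1b, -0.163 to 0.543 for XLOC_069958 and -0.084 to 0.549 for XLOC_069515. For Miz1(POZ) they were -0.501 to 0.081 for Junb, -0.063 to 0.125 for Jund, -0.174 to 0.288 for Ier2, -0.046 to 0.535 for Desi2 and -0.006 to 0.467 for Ccng2. Each such fit leaves 2 samples in an arm, and the cause was not tested. Nr4a1 in the Miz1(POZ) table was under the filter without knockout library 3 and has no value there. The number of libraries and the unknown depth of the Miz1(POZ) table limit all of these values.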
